A study of Mus musculus with 24 samples.

Results

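The let-7 family guide strands are the mature mouse miRNAs mmu-let-7a, mmu-let-7b, mmu-let-7c, mmu-let-7d, mmu-let-7e, mmu-let-7f, mmu-let-7g, mmu-let-7i and mmu-miR-98, named without the prefix from here on. They were chosen by assay name, with the passenger strands (marked with a star) left out, and make up 9 of the 584 miRNA assays in the deposited table. Their levels were measured by quantitative PCR on TaqMan Low Density Array cards, with all 9 members on card A and 1 well per member and replicate. The study set 3 cultured mouse lines against bone marrow cells, with 3 replicates in each of 4 groups and 12 replicates in all. L-1210 is a lymphocytic leukaemia line that grows as lymphoblast-like cells in suspension. M1 is a myeloid leukaemia line that also grows in suspension. PYS is a teratocarcinoma line that grows as an adherent, epithelial-like monolayer. The lines were collected at passage 3. CT-BM stands for primary marrow cells flushed from mouse femur and tibia. The series title speaks of stem cells, but no sort is given for CT-BM, its growth text describes a suspension culture, and strain and age are not given in the sources used here. The labels give no engineered allele and no treatment, and each tumour type stands on a single line, so line and tumour type cannot be told apart.

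let-7 miRNAs repress target mRNAs, among them those of Ras, Myc and Hmga2, through pairing with the seed at their 5′ end. They are scarce in early embryonic cells, where the Lin28 proteins bind their precursors and block maturation, and they accumulate as cells differentiate. Several let-7 genes are transcribed together with each other or with genes of the miR-99/miR-100 and miR-125 families, so that a single primary transcript can give rise to several mature miRNAs.

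The mature sequences are shown because the members differ by so few bases that each assay must tell close relatives apart. All 9 matched RefSeq entries (build GRCm38.p6). The capitals mark the seed, bases 2 to 8.
let-7a: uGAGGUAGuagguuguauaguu
let-7b: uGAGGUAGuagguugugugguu
let-7c: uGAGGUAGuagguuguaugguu
let-7d: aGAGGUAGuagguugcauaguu
let-7e: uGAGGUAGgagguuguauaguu
let-7f: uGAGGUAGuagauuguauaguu
let-7g: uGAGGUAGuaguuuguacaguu
let-7i: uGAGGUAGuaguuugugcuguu
miR-98: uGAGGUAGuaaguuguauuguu
All 9 had 22 bases and 1 shared seed, and over the 36 pairs of members the sequences differed at 1 to 6 positions. Counted from 1 at the 5′ end and with the let-7a base first, let-7c differed from let-7a by A19G, let-7e by U9G and let-7f by G12A. let-7b carried A17G and A19G, let-7d U1A and U16C, let-7g G12U and U18C, and miR-98 G11A and A19U. let-7i differed from let-7a by G12U, A17G, U18C and A19U. Readings of close relatives could share signal, and this was not tested.

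The family has 12 hairpin genes in the RefSeq annotation (GRCm38.p6), and most lie in clusters. Mirlet7c-2 (chr15:85706603-85706697) and Mirlet7b (chr15:85707319-85707403) lie 621 bases apart on the plus strand within the lncRNA gene Lncppara. Mirlet7a-1, Mirlet7f-1 and Mirlet7d lie together on the minus strand of chromosome 13, from 48536012 to 48538272, outside other annotated genes. Mirlet7e (chr17:17830352-17830444) lies within Spaca6, 367 bases from Mir125a. Mirlet7c-1 (chr16:77599657-77599750) lies 656 bases from Mir99a, and Mirlet7a-2 (chr9:41536716-41536811) lies with Mir100 and Mir125b-1 within the lncRNA gene Mir100hg. Mirlet7f-2 (chrX:151912346-151912428) and Mir98 (chrX:151913214-151913321) lie 785 bases apart within Huwe1. Mirlet7g (chr9:106178840-106178927, within Wdr82) and Mirlet7i (chr10:122985640-122985724, outside other annotated genes) have no let-7 neighbour.

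The table held 8969 wells, 367 to 380 per card run, of which 48.3% were undetermined. A threshold cycle (Ct) is the PCR cycle at which a well crosses the detection threshold, so an earlier Ct means more template. The scale of levels is the negative delta Ct, the mean Ct of the control RNAs MammU6, snoRNA135 and snoRNA202 minus the Ct of the assay, a log2-like scale on which 1 unit is 1 cycle. Wells that were undetermined or later than Ct 35 counted as not detected. The 7 blood cell miRNAs listed as markers were detected in all replicates of L-1210, M1 and CT-BM, and 5 of 7 in PYS, where miR-142-5p was not detected. Their summed level (log2) was lower in all 3 lines than in CT-BM. It ran from -2.38 to -2.15 in L-1210 cells, -1.28 to -1.11 in M1 cells and -10.66 to -10.04 in PYS cells, against 1.64 to 1.80 in CT-BM. Of 9 miRNAs of an embryonic stem cell list, 4 were detected in every L-1210 well present, 3 in every M1 well present and 9 in PYS. In CT-BM 2 were, and 6 of the 9 were detected in no replicate. Those detected in the leukaemia lines had mean Ct from 32.7 to 34.9, near the limit of 35. The summed level of this list (log2) ran from -19.04 to -17.10 in L-1210 cells and -21.12 to -18.38 in M1 cells. It ran from -0.49 to -0.008 in PYS cells, against -13.46 to -13.03 in CT-BM. CT-BM also had both erythroid and all 4 stromal markers in every well present, while the 3 lines lacked miR-143, miR-214 and miR-486. The other members of these lists were not confined to CT-BM. Stromal miR-199a-3p was detected in all wells of the 3 lines. Its mean Ct was 23.4 in M1 cells, 24.5 in L-1210 cells and 28.8 in PYS cells, against 23.8 in CT-BM. Stromal miR-145 was detected in 3 of 3 PYS, 2 of 2 M1 and 0 of 3 L-1210 wells. Erythroid miR-451 was detected in 3 of 3 PYS, 1 of 2 M1 (Ct 34.99) and 0 of 3 L-1210 wells. The summed level of 3 muscle miRNAs (log2) ran from -19.66 to -13.56 in L-1210 cells, -18.53 to -17.48 in M1 cells and -14.22 to -13.77 in PYS cells, against -4.39 to -3.79 in CT-BM. That of 2 endothelial miRNAs ran from -5.08 to -4.58 in L-1210 cells, -4.54 to -4.26 in M1 cells and -5.26 to -4.77 in PYS cells, against -1.84 to -1.69 in CT-BM. miR-124, a neuronal miRNA, was detected in CT-BM alone. All 5 epithelial miRNAs listed were detected in L-1210, M1 and CT-BM, and 4 of 5 in PYS, where miR-141 was not detected. Their summed level (log2) ran from -8.17 to -8.02 in L-1210 cells and -8.60 to -8.04 in M1 cells. In PYS cells it ran from -8.66 to -8.34, against -7.25 to -6.77 in CT-BM. What part these cell type differences have in the let-7 values was not tested. In these bulk RNA samples a smaller share of cells of a type and less RNA per cell cannot be told apart.

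The control RNAs shifted between the 4 groups by different amounts and not all in the same direction, which bears on every comparison. On card A, MammU6 came 0.74 cycles later in L-1210, 2.17 cycles earlier in M1 and 0.57 cycles later in PYS than in CT-BM. snoRNA202 was ahead of CT-BM by 2.64 cycles in L-1210, 2.67 cycles in M1 and 1.53 cycles in PYS. Members were therefore also compared relative to the mean of the family on the same card, which needs no control RNA.

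Of the 9 members, 6 were detected in all 12 replicates: let-7b, let-7c, let-7d, let-7e, let-7g and let-7i. let-7f was detected in 8 of 11 wells present in the table and let-7a in 4 of 10. let-7f was detected in all 3 L-1210 and all 3 M1 wells and in none of the 3 PYS wells, against 2 of 2 CT-BM wells present. let-7a was detected in 2 of 2 L-1210 wells and 2 of 2 M1 wells and in 0 of 3 PYS wells, against 0 of 3 CT-BM wells. miR-98 was not detected in any of its 11 wells. The mean negative delta Ct of the 6 members detected throughout was -7.27 ± 0.69 in L-1210 cells, -7.04 ± 0.58 in M1 cells and -10.98 ± 0.17 in PYS cells, against -7.61 ± 0.24 in CT-BM (log2, SD, n = 3 each), and the replicates of L-1210, M1 and CT-BM overlapped while those of PYS lay below all others. The detected let-7a wells had Ct 23.8 and 22.0 in L-1210 and 21.2 and 21.0 in M1, far from the limit, so this assay read as all or none.

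**Figure D1:**
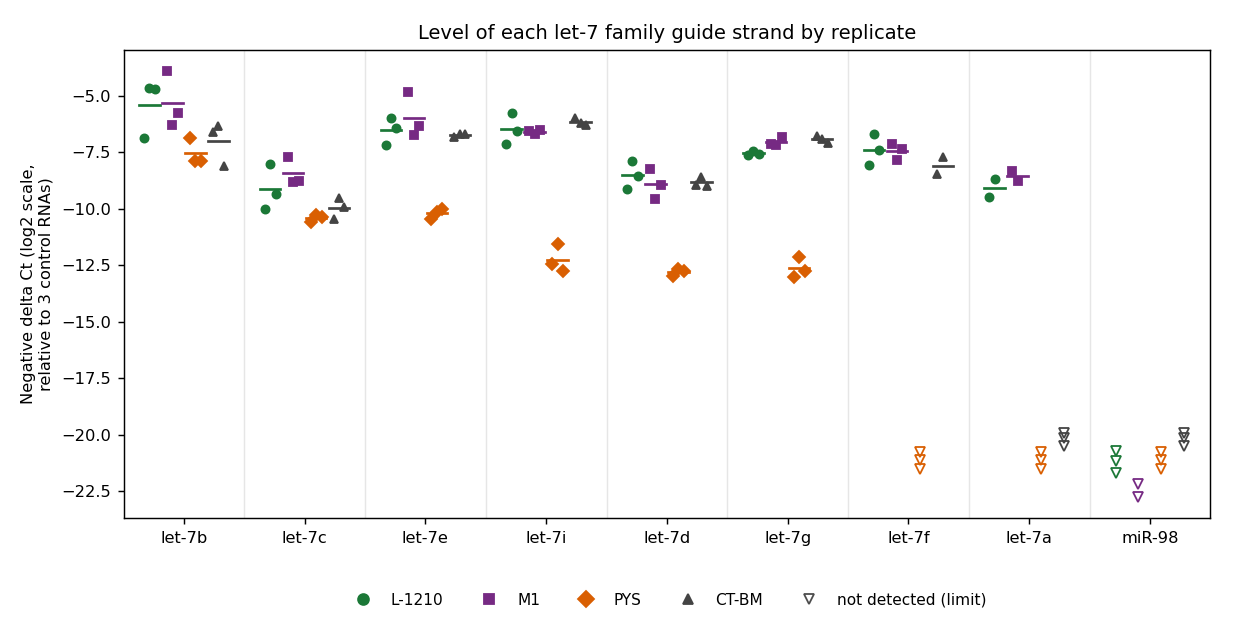
Negative delta Ct (log2 scale, relative to the mean of 3 control RNAs on the card) of each guide strand in each replicate of L-1210, M1, PYS and CT-BM, with bars at group means and open triangles at the detection limit. The 3 PYS replicates of let-7d, let-7e, let-7g and let-7i lie below all CT-BM replicates, while those of let-7b and let-7c overlap CT-BM. let-7a and let-7f were not detected in PYS, and let-7a was not detected in CT-BM.

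PYS had much lower levels of let-7d, let-7e, let-7g and let-7i than CT-BM, by 11.2-fold to 67.8-fold, while let-7b and let-7c stayed within the spread between replicates. A change was called at an adjusted p under 0.05 (limma, Benjamini-Hochberg over all assays tested) and a change of at least 2-fold. Of 7 members tested, 5 were called lower in PYS and 0 higher, while 38.7% of all 362 assays tested were called lower and 39.8% higher. The replicates of the groups did not overlap for these 5 members, and likewise did not overlap for 89.5% of all assays tested. 1 of the 5, let-7f, entered the test only because CT-BM detected it. Among the 6 members measured in both groups the median log2 fold change was -3.72, against -0.08 over the 256 assays measured in both.

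let-7i, a member with a gene of its own on chromosome 10, had a negative delta Ct of -12.46, -11.56 and -12.75 in PYS, against -6.00, -6.22 and -6.29 in CT-BM. Every PYS replicate lay more than 5 cycles below every CT-BM replicate. Its log2 fold change was -6.08 (SE 0.36, limma adjusted p = 2.7e-09), a 67.8-fold lower level. let-7g, also encoded alone, had -13.01, -12.16 and -12.77 in PYS, against -6.77, -6.93 and -7.11 in CT-BM. It was 52.3-fold lower (log2 fold change -5.71, SE 0.24, limma adjusted p = 7.0e-11). Both members fell together, and neither overlapped between the groups.

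let-7d, from the chromosome 13 cluster, read -12.97, -12.67 and -12.77 in PYS, against -8.94, -8.59 and -8.99 in CT-BM. It was 15.6-fold lower, with a log2 fold change of -3.97 (SE 0.35, limma adjusted p = 2.1e-07). let-7e, from the chromosome 17 cluster with miR-99b and miR-125a, read -10.45, -10.13 and -10.04 in PYS, against -6.82, -6.68 and -6.68 in CT-BM. It was 11.2-fold lower (log2 fold change -3.48, SE 0.43, limma adjusted p = 5.3e-06). let-7f, encoded beside let-7d by 1 of its 2 genes, was not detected in the 3 PYS wells and had Ct 23.0 and 22.8 in CT-BM, so it was at least 8373-fold lower at the Ct limit of 35. This bound, like all that follow, is on the scale of the 3 controls.

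let-7b and let-7c, the pair encoded 621 bases apart on chromosome 15, did not follow. let-7b read -6.87, -7.91 and -7.87 in PYS, against -6.61, -6.32 and -8.11 in CT-BM. The groups overlapped, and the log2 fold change of -0.54 had a 95% confidence interval from -2.09 to 1.01 (limma adjusted p = 0.48). let-7c read -10.59, -10.26 and -10.38 in PYS, against -10.48, -9.53 and -9.91 in CT-BM, a log2 fold change of -0.44 with an interval from -1.44 to 0.56 (limma adjusted p = 0.37). let-7c was called lower with snoRNA135 alone (-1.36), snoRNA202 alone (-1.03) and both (-1.20), and read 1.07 with MammU6 alone, without a call. The intervals do not reach the changes of let-7d, let-7e, let-7g and let-7i.

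Against the leukaemia lines, PYS had lower levels of all 8 members tested. In PYS against L-1210, 8 of 8 were called lower, while 27.6% of the 351 assays tested were. In PYS against M1, 8 of 8 were called lower, while 27.3% of 341 were. 2 of the 8, let-7a and let-7f, were not detected in PYS and were tested through the lines that had them. Over the 6 members measured in both groups, the median log2 fold change was -3.97 against L-1210 and -4.06 against M1, beside 0.53 and 0.11 over all assays measured in both groups. At the other end, 45.9% of assays were called higher in PYS than in L-1210 and 46.0% higher than in M1, against 0 members in each.

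let-7i and let-7g changed most of the 6 in both comparisons, which share the PYS replicates. let-7i was 54.5-fold and let-7g 34.2-fold lower in PYS than in L-1210, and 50.4-fold and 48.7-fold lower than in M1. let-7d was 19.4-fold lower than in L-1210 and 14.8-fold lower than in M1, and let-7e 12.7-fold and 18.8-fold. let-7b and let-7c changed least of the 6. let-7b was lower by a log2 fold change of -2.14 than in L-1210 (SE 0.71, limma adjusted p = 0.014) and of -2.24 than in M1 (SE 0.71, limma adjusted p = 0.011). let-7c was lower by -1.29 (SE 0.46, limma adjusted p = 0.020) and -1.99 (SE 0.46, limma adjusted p = 0.0014). The let-7b and let-7c calls against L-1210 were lost without L-1210 replicate 2, where 5 of 7 members tested were called. The let-7b call against L-1210 was also lost without L-1210 replicate 3 (-1.79, limma adjusted p = 0.058), and the let-7c call against L-1210 without PYS replicate 1 (-1.20, limma adjusted p = 0.060). Against M1, the let-7b call was lost without M1 replicate 1 (-1.54, limma adjusted p = 0.052). Calls of both members were also lost with snoRNA202 alone against L-1210 and with MammU6 alone against M1. The undetected let-7f was at least 13703-fold lower than in L-1210 and at least 13185-fold lower than in M1, and let-7a at least 4193-fold and 6125-fold.

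On the scale of the 3 controls, few let-7 members were called in the leukaemia lines against CT-BM, and none of these calls was lower. In L-1210, 1 of 8 members tested was called higher than in CT-BM and 0 lower (limma, with 1, let-7g, lower at an unadjusted p under 0.05), while 22.5% of the 333 assays tested were called higher and 45.6% lower. In M1, 3 of 8 were called higher and 0 lower (limma, with 0 lower at an unadjusted p under 0.05), while 25.2% of 325 assays were called higher and 44.3% lower. The member called in both lines was let-7a, which CT-BM did not show in any of 3 wells, so it was tested through the lines alone. On the scale of the 3 controls it was at least 2183-fold higher in L-1210 and at least 3188-fold higher in M1. These bounds move with the scale, and over the 7 scalings the lowest log2 difference was 9.25 in L-1210 and 11.14 in M1, both with snoRNA202 alone.

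let-7b, the earliest member in both lines, read -6.86, -4.67 and -4.71 in L-1210 and -3.92, -6.28 and -5.75 in M1, against -6.61, -6.32 and -8.11 in CT-BM. The replicates of each group spread over about 2 cycles. The log2 fold change was 1.60 in L-1210 (SE 0.72, limma adjusted p = 0.060, not called) and 1.70 in M1 (SE 0.72, limma adjusted p = 0.048). The M1 call was lost in 13 of 26 alternatives, with a limma adjusted p of 0.21 without M1 replicate 1 and 0.19 without CT-BM replicate 3. let-7c read -10.00, -8.01 and -9.33 in L-1210 and -7.69, -8.80 and -8.77 in M1, against -10.48, -9.53 and -9.91 in CT-BM. It was higher in M1, by 1.55 (SE 0.47, limma adjusted p = 0.0091), and kept this call in 26 of 26 alternatives. In L-1210 its difference of 0.85 had an interval from -0.16 to 1.87.

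The other 5 members measured in these groups were not called. let-7d, let-7e, let-7f, let-7g and let-7i differed from CT-BM by -0.61 to 0.71 in L-1210 and by -0.43 to 0.75 in M1 (log2 fold change). let-7g read -7.64, -7.44 and -7.57 in L-1210, against -6.77, -6.93 and -7.11 in CT-BM. These replicates did not overlap and the adjusted p was 0.031 (limma), but the change of -0.61 was under 2-fold. let-7i lay between -7.16 and -5.75 in L-1210 and between -6.70 and -6.53 in M1, against -6.29 to -6.00 in CT-BM. In L-1210 against M1, 0 of 8 members were called in either direction (limma), while 55.9% of the 306 assays tested were. The member differences there ran from -0.70 for let-7c to 0.39 for let-7d. At an unadjusted p under 0.05, 0 of 8 passed there. With snoRNA202 alone, 7 members were called lower in L-1210 than in M1, and with MammU6 alone 3 were called higher.

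The scale chosen moved the counts of the leukaemia lines against CT-BM and not the calls of 4 members in PYS against CT-BM. These 4, let-7d, let-7e, let-7g and let-7i, were called lower in PYS than in CT-BM under all 7 scalings tried, with log2 fold changes from -5.17 to -2.46 for let-7d, -4.40 to -1.97 for let-7e, -6.67 to -4.20 for let-7g and -7.00 to -4.57 for let-7i. let-7b ran from -1.46 to 0.97 and was called under none. In L-1210 against CT-BM, 8 members were called higher with MammU6 alone, while 1 was called higher and 4 lower with snoRNA202 alone. The median of all assays moved by 1.87 and by -1.65 (log2) with these scalings. With the mean of the miRNA assays detected in all 12 replicates as the scale, 6 members were called higher in L-1210 and 5 in M1 than in CT-BM.

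**Figure D2:**
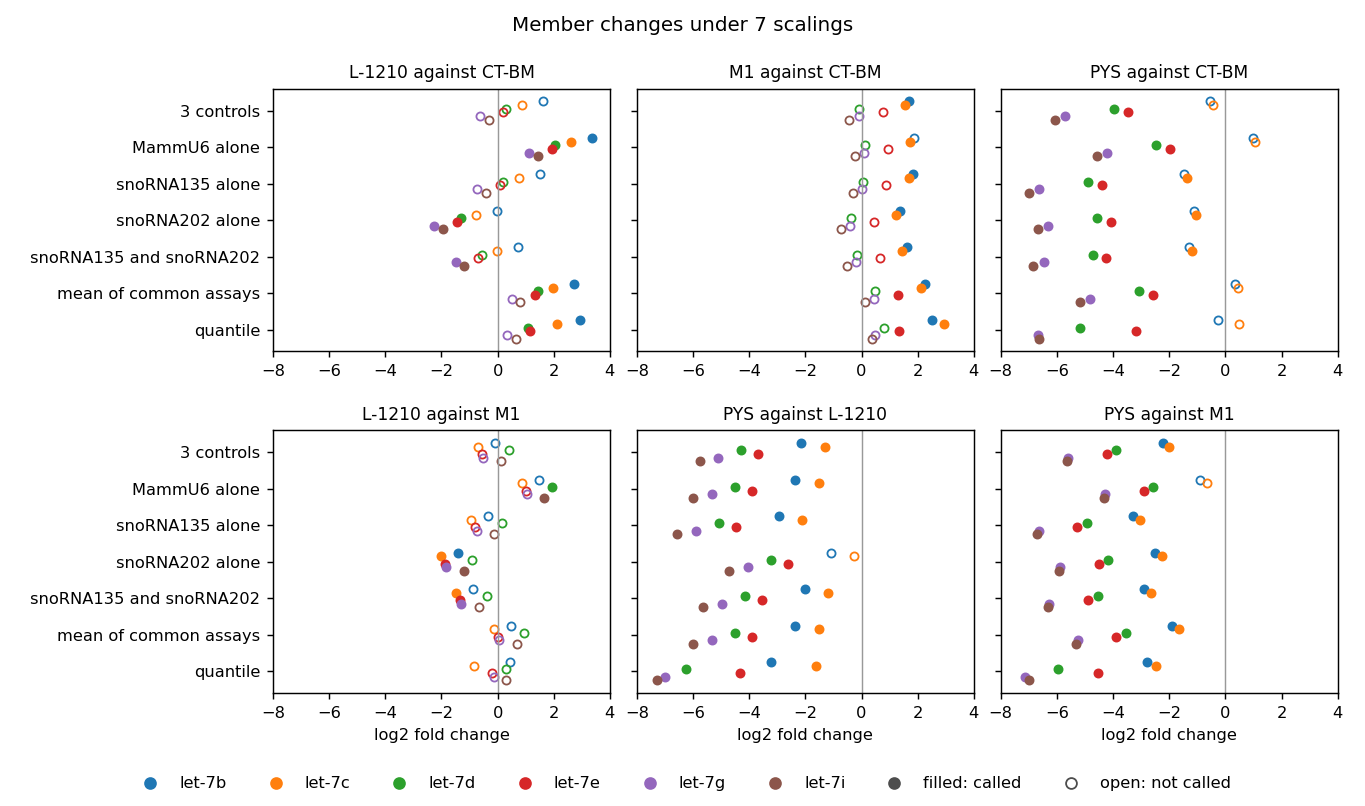
log2 fold change of the 6 members measured in all replicates (colours) under 7 scalings (listed down each panel) in 6 comparisons (panels), with filled points for called changes and open points for changes that were not called. In PYS against CT-BM the points of let-7d, let-7e, let-7g and let-7i stay below zero under every scaling, while in L-1210 against CT-BM the points move from one side of zero to the other.

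Relative to the family mean, the make-up of the family in PYS differed from that of every other group, and this comparison uses no control RNA. The family mean is the mean Ct of the 6 members detected in all 12 replicates, so changes on this scale sum to 0 over those 6 and a member can only be higher or lower than its relatives. In PYS against CT-BM, 2 of the 7 members tested were called higher and 3 lower, while 63.6% of 242 card A assays were called higher and 26.0% lower on this scale. The median log2 difference over these 242 assays was 3.16, so the shares over all assays include the shift of the family mean itself. let-7b lay 4.19, 2.87 and 3.22 above the family mean in PYS, against 0.99, 1.06 and -0.26 in CT-BM (difference 2.83, SE 0.48, limma adjusted p = 2.9e-05). let-7c lay 0.47, 0.52 and 0.72 above it in PYS, against -2.87, -2.15 and -2.06 in CT-BM (difference 2.93, SE 0.33, limma adjusted p = 2.1e-07). Both were higher than the family mean in every PYS replicate. Replicates of the groups did not overlap for 6 of the 7 members tested, and likewise for 93.8% of the assays.

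let-7g and let-7i took the other direction. let-7g lay at -1.95, -1.37 and -1.67 relative to the family mean in PYS, against 0.83, 0.45 and 0.74 in CT-BM (difference -2.34, SE 0.39, limma adjusted p = 2.0e-05). let-7i lay at -1.40, -0.78 and -1.66 in PYS, against 1.60, 1.15 and 1.56 in CT-BM (difference -2.71, SE 0.35, limma adjusted p = 1.2e-06). let-7d (difference -0.60) and let-7e (-0.11) were not called. The third member called lower was let-7f, not detected in PYS. All 5 calls were kept in the other 2 comparisons of PYS. let-7b and let-7c were higher by 1.56 and 2.41 in PYS than in L-1210 and by 1.70 and 1.94 than in M1, and let-7g and let-7i were lower by -1.39 and -2.06 than in L-1210 and by -1.67 and -1.72 than in M1. 6 of 8 members were called in each, let-7a and let-7f as undetected, while 94.0% of 232 assays were called in PYS against L-1210 and 92.4% of 225 in PYS against M1. These shares also include the shift of the family mean, with medians over all assays tested of 4.39 against L-1210 and 4.67 against M1.

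**Figure D3:**
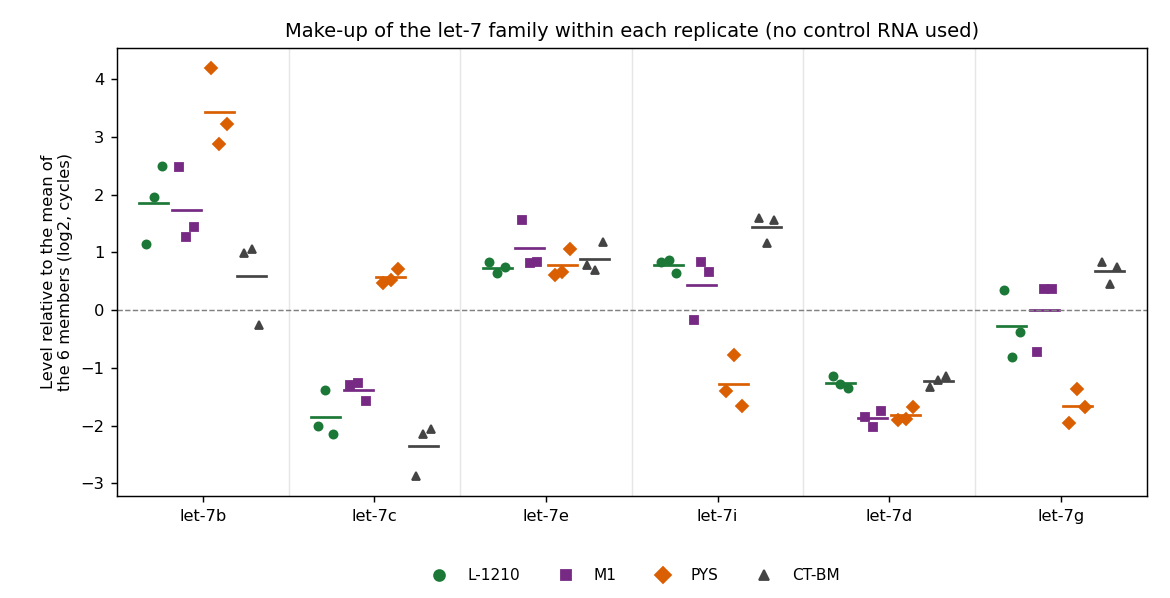
Level of 6 members relative to their own mean within each replicate (log2, in cycles), by group, with bars at group means and a dashed line at the family mean. let-7b and let-7c stand higher in the 3 PYS replicates than in CT-BM, let-7i and let-7g stand lower, and let-7e overlaps between PYS and CT-BM.

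The same shift shows in the Ct distances between pairs of members on 1 card. The Ct of let-7g minus that of let-7b was 6.14, 4.24 and 4.90 cycles in PYS, against 0.16, 0.61 and -1.003 in CT-BM. In L-1210 it was 2.14 ± 1.18 and in M1 1.72 ± 1.29 cycles (SD, n = 3 each), between PYS and CT-BM. The Ct of let-7i minus that of let-7c was 1.87, 1.29 and 2.38 in PYS, against -4.47, -3.30 and -3.62 in CT-BM, so the order of this pair was reversed. The distance of let-7b and let-7c differed by less than the spread, at 2.86 ± 0.75 cycles in PYS and 2.96 ± 1.05 in CT-BM (SD, n = 3 each). The pair let-7d and let-7e read -2.60 ± 0.12 in PYS and -2.12 ± 0.21 in CT-BM. let-7b had the earliest Ct of the 6 in every replicate of L-1210, M1 and PYS, against let-7i in every CT-BM replicate. Each assay has its own primers, so a distance between members says less about abundance than its change between groups does.

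In the leukaemia lines fewer members were called on this scale. In L-1210 against CT-BM, 2 of 8 members tested were called on the family scale, let-7b at 1.27 (SE 0.49, limma adjusted p = 0.028) and let-7a, not detected in CT-BM, while 71.9% of 224 assays were called. The let-7b call was lost without L-1210 replicate 2 (limma adjusted p = 0.052), L-1210 replicate 3 (0.12) or CT-BM replicate 3 (0.16). In M1 against CT-BM, 1 of 8 was called, let-7a, while 65.9% of 217 assays were. let-7b at 1.13 (limma adjusted p = 0.051) and let-7c at 0.98 (limma adjusted p = 0.015) lay above CT-BM without a call, and the count moved between 0 and 4 as single replicates were left out. In L-1210 against M1, 0 of 8 were called (limma, with 1, let-7d, at an unadjusted p under 0.05), while 49.3% of 201 assays were.

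The miRNAs encoded beside let-7 genes were measured on the same cards. miR-99a, miR-99b and miR-100 form 1 family and miR-125a and miR-125b another, and their seeds differ from that of let-7. The mature sequences of 3 neighbours are shown to set their seeds beside that of let-7, from RefSeq (GRCm38.p6), with bases 2 to 8 in capitals.
miR-99a-5p: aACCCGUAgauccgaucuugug
miR-99b-5p: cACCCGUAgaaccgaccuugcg
miR-125a-5p: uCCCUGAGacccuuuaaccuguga
Of 9 neighbour assays on the cards, 6 were tested in L-1210 and in M1 against CT-BM, and 6 of 6 were called lower in each line, while 45.6% of all assays tested were called lower in L-1210 and 44.3% in M1. 2 of the 6, miR-99a and miR-99b, were not detected in L-1210, and 3 of the 6, these and miR-100, were not detected in M1, so they were tested through CT-BM alone. In PYS against CT-BM, 3 of 7 neighbours tested were called higher and 2 lower, while 39.8% of all assays were called higher and 38.7% lower. Of the 3 called higher, miR-125a-3p was tested through PYS alone, and miR-99b* lost its call with snoRNA135 alone (0.95, limma adjusted p = 0.085) and with quantile scaling (0.99, limma adjusted p = 0.13). miR-99a was not called on the scale of the 3 controls, but was called lower with snoRNA135 alone (-1.50), snoRNA202 alone (-1.17) and both (-1.33). In PYS against each leukaemia line, 7 of 7 were called higher, while 45.9% of all assays were called higher than in L-1210 and 46.0% higher than in M1. Of these 7, miR-99a, miR-99b and miR-125a-3p were not detected in either leukaemia line, nor miR-100 in M1, and these were tested through PYS alone.

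On chromosome 17, let-7e and its neighbour miR-99b differed from CT-BM in opposite directions in PYS. miR-99b read -4.40, -4.26 and -4.21 in PYS, against -9.49, -9.58 and -9.82 in CT-BM, a log2 fold change of 5.34 (SE 0.26, limma adjusted p = 4.0e-10). The let-7e beside it was lower by -3.48 in the same RNA. The level of let-7e minus that of miR-99b was -6.05, -5.87 and -5.82 in PYS, against 2.67, 2.90 and 3.14 in CT-BM, a change of -8.82 cycles that needs no control RNA. The replicates did not overlap, with an exact two-sided permutation p = 0.1, the smallest that 3 against 3 replicates allow. miR-125a-5p differed from CT-BM by 0.08 in PYS (interval -1.71 to 1.87), and miR-125a-3p from the other arm of its hairpin was detected in PYS and in no other group.

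In L-1210 and M1, miR-99b and miR-125a-5p of the same locus were lower than in CT-BM, while let-7e was not called on the scale of the 3 controls. miR-99b was not detected in any of the 6 wells of these lines, which puts it at least 3025-fold lower in L-1210 and at least 7729-fold lower in M1 than in CT-BM. miR-99b*, from the other arm, was detected in every replicate and was lower than in CT-BM by -5.16 in L-1210 and -4.67 in M1 (limma adjusted p = 4.9e-07 and 1.5e-06). miR-125a-5p was lower by -11.37 in L-1210 (SE 0.83) and -11.51 in M1 (SE 0.83, limma adjusted p = 4.7e-08 and 4.8e-08). let-7e differed from CT-BM by 0.19 in L-1210 (interval -0.75 to 1.13) and 0.75 in M1 (interval -0.19 to 1.69). The level of let-7e minus that of miR-125a-5p was 10.4 ± 1.48 in L-1210 cells, 11.1 ± 1.03 in M1 cells and -4.67 ± 0.08 in PYS cells, against -1.11 ± 0.39 in CT-BM (SD, n = 3 each). Each line lay apart from CT-BM in this difference (exact permutation p = 0.1 in each of the 3 comparisons, the smallest possible).

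let-7c and miR-99a, neighbours on chromosome 16, overlapped between PYS and CT-BM in their distance. The level of let-7c minus that of miR-99a was 0.26 ± 0.19 in PYS and 0.12 ± 0.30 in CT-BM (SD, n = 3 each, exact permutation p = 0.6). miR-99a was not detected in L-1210 or M1, where let-7c was detected in all wells. let-7c also has its second gene beside let-7b, and the assay cannot tell the 2 genes apart. On chromosome 9, miR-100 was detected in PYS (Ct 24.3, 23.2 and 24.6) and CT-BM (22.2, 23.0 and 22.8), where let-7a was not detected. In L-1210 both were detected, and in M1 let-7a was and miR-100 was not. let-7a also has a gene in the chromosome 13 cluster, so its reading need not come from chromosome 9. miR-100 and miR-125b-5p were lower in PYS than in CT-BM, by -2.32 (limma adjusted p = 7.9e-06) and -4.21 (limma adjusted p = 9.1e-07). With MammU6 alone the miR-100 change was -0.81 and was not called.

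**Figure D4:**
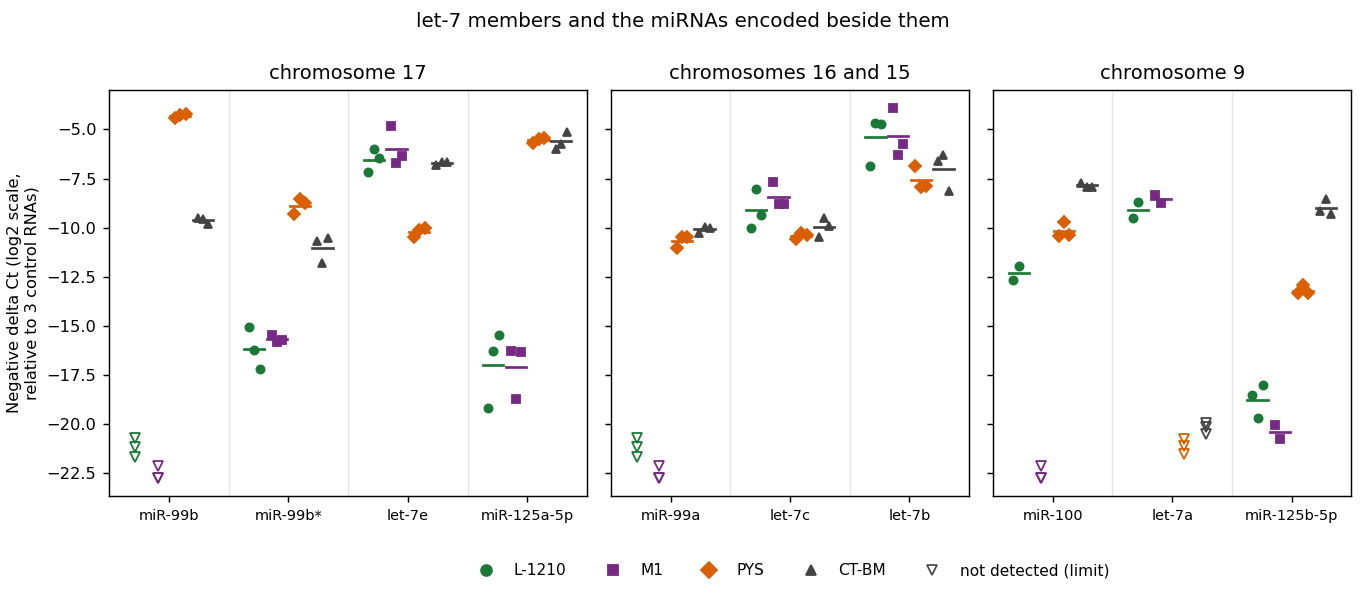
Negative delta Ct (log2 scale, relative to 3 control RNAs) of let-7 members and of the miRNAs encoded in the same clusters, by replicate and group, with bars at group means and open triangles at the detection limit. On chromosome 17, miR-99b is highest in PYS while let-7e is lowest there, and miR-99b is not detected in L-1210 and M1 while let-7e stands near its CT-BM level.

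The passenger strands come from the other arm of the same hairpins and sit on card B. The 8 passenger assays gave 12 of 12 detected wells for let-7a* and let-7g*, 9 of 11 for let-7i*, 6 of 12 for let-7c-1*, 3 of 12 for let-7d*, 3 of 11 for the rat-named let-7e*, and none for let-7b* and let-7f*. In PYS against CT-BM, 4 of 5 tested were called lower, beside 38.7% of all assays, and 1 higher, beside 39.8%. The 1 higher was the rat-named let-7e*, which was detected only in PYS and lost its call at a Ct limit of 32 (0.05, limma adjusted p = 0.91). let-7c-1* lost its lower call with MammU6 alone (-0.43, limma adjusted p = 0.45). In L-1210 against CT-BM, 1 of 4 tested was called higher, beside 22.5% of all assays, and 2 lower, beside 45.6%. In M1 against CT-BM 2 of 5 were called higher, beside 25.2%, and 2 lower, beside 44.3%. let-7c-1*, called lower in both lines, was not detected in either and was tested through CT-BM alone, and let-7d* was tested through M1 alone.

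let-7g and its passenger strand changed by different amounts in each line. The passenger strand is shown, from RefSeq (GRCm38.p6), as the one detected in every replicate whose change was called in all 3 lines under all 7 scalings.
let-7g-3p: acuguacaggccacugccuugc
let-7g* read -14.96, -14.21 and -14.47 in L-1210 cells, -14.32, -14.12 and -13.80 in M1 cells and -15.05, -14.82 and -14.97 in PYS cells, against -11.08, -11.10 and -11.74 in CT-BM. All 3 lines lay below CT-BM, by -3.24, -2.77 and -3.64 (limma adjusted p = 1.1e-07, 6.2e-07 and 2.2e-08), whereas let-7g itself was called lower in PYS alone on the scale of the 3 controls. In L-1210, let-7g was also called lower with snoRNA202 alone (-2.25) and with snoRNA135 and snoRNA202 (-1.49). With MammU6 alone it was called higher there (1.13). The level of let-7g minus that of let-7g* was 7.32, 6.78 and 6.90 in L-1210 cells, 7.19, 6.95 and 6.98 in M1 cells and 2.04, 2.66 and 2.20 in PYS cells, against 4.31, 4.17 and 4.63 in CT-BM. Each line stood apart from CT-BM in this difference (exact permutation p = 0.1, the smallest possible), which crosses 2 cards and so carries the control RNAs of both.

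let-7i and let-7i* were both called lower in PYS, where let-7i* was not detected in 2 of 2 wells and was at least 219-fold lower than in CT-BM. In the leukaemia lines the level of let-7i minus that of let-7i* was 7.79 ± 0.50 in L-1210 and 7.09 ± 0.23 in M1, against 8.04 ± 0.18 in CT-BM (SD, n = 3 each), with L-1210 overlapping CT-BM and M1 not. let-7a* read -11.90, -11.69 and -12.14 in L-1210 cells, -9.61, -10.05 and -9.99 in M1 cells and -14.48, -14.22 and -13.99 in PYS cells, against -13.11, -12.79 and -13.01 in CT-BM. It was higher in M1 by 3.09 (SE 0.22, limma adjusted p = 3.4e-08), in the same direction as let-7a. It was higher in L-1210 by 1.06 and lower in PYS by -1.26, but with snoRNA202 alone the L-1210 change was -0.59 and with MammU6 alone the PYS change was 0.77. let-7a* was detected in all CT-BM and PYS wells, where let-7a was detected in none. The RefSeq (GRCm38.p6) sequence of this arm is shown because another hairpin gives the same letters.
let-7a-1-3p: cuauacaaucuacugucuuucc
This sequence is also that of let-7c-2-3p, so a let-7a* reading of it could come from either hairpin. let-7d* was detected in M1 (Ct 24.1, 25.0 and 24.4) and in no well of the other groups, although let-7d was detected in all 12 replicates.

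**Figure D5:**
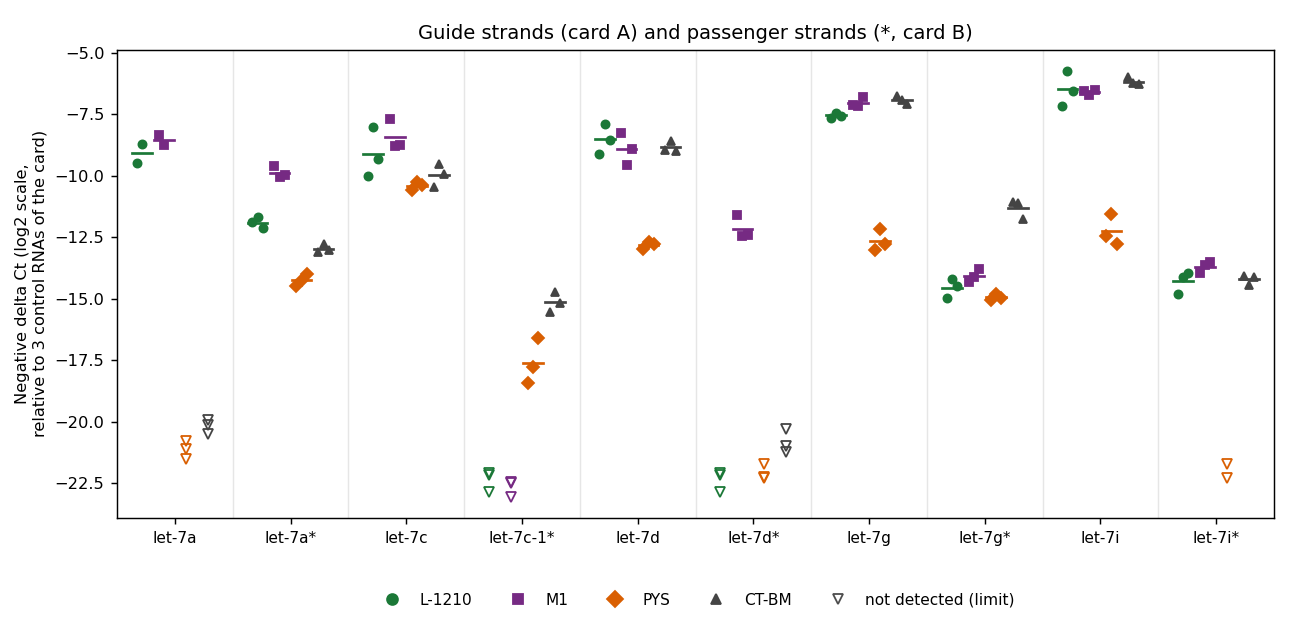
Negative delta Ct (log2 scale, relative to the 3 control RNAs of each card) of guide strands on card A and passenger strands (star) on card B, by replicate and group, with bars at group means and open triangles at the detection limit. let-7g* is lower in L-1210, M1 and PYS than in CT-BM, while the let-7g replicates are far lower in PYS alone. let-7d* is detected in M1 alone.

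Over the 12 replicates, the miRNAs whose negative delta Ct ran most like the mean of the 6 let-7 members were miR-29b, miR-29a, miR-142-3p, miR-29a* and miR-155, out of 170 other mouse assays detected in all replicates. Their Pearson correlations were 0.98, 0.96, 0.95, 0.95 and 0.95. These values are a description only, since all assays of a card share the same control RNAs and the 3 PYS replicates stand apart from the other 9. Scaled by the mean of common assays, the same 5 ranked 1, 4, 7, 2 and 3. miR-29a was lower in PYS than in CT-BM by -5.67, near the -5.71 of let-7g. The level of miR-142-3p, a blood cell miRNA, fell much further, by 15.39 on the log2 scale. miR-202-3p, whose RefSeq sequence shares the bases GAGGUA at positions 2 to 7 with let-7, was not detected in any of 12 replicates.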

How the data were processed

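Total RNA of 12 replicates (24 GEO samples, 1 for each of 2 cards) was reverse transcribed, preamplified and run for 40 cycles, per the labels. The authors' deposited table holds, per the file headers, raw Ct and Ct Avg values in cycles, not normalized. Ct Avg equalled the mean of its wells within 0.001 in 7000 of 7000 values. The calling software is not given in the sources used here. Of 9216 wells, 247 were absent, and repeat wells had a median SD of 0.108 cycles. Absent wells stayed missing. Precision rests on 3 replicates a group, and the median SD of the negative delta Ct was 0.35 in L-1210, 0.26 in M1, 0.26 in PYS and 0.22 in CT-BM over 187 assays.

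All 584 miRNA assays were fitted with limma 3.58.1 in R 4.3.3 (4 group means, eBayes, Benjamini-Hochberg within each of 6 comparisons). An assay was tested where every replicate present of at least 1 of the 2 groups was detected. Undetected wells were set to Ct 35, so folds against an undetected group are bounds. The members and lists were chosen with earlier results of these data known. The named miRNAs are the members, their passenger strands, their cluster neighbours, assays sharing the seed start and the 5 most alike in pattern. Whether replicates came from separate cultures or animals is not in the labels, so p-values measure only how these samples spread, and that spread may be technical. Comparisons that share a group are not independent. No replicate block was used. The fit was tested on simulated data. Alternatives covered scaling, the Ct limit, the filter, the fit, the fold minimum, a replicate block and single replicates. Tables and figures used Python 3.11.15, pandas 2.3.3, numpy 2.4.6 and matplotlib 3.10.9.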

Additional observations from a re-analysis of the deposited data

How the results depend on the processing

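The calls of let-7d, let-7e, let-7g and let-7i as lower in PYS than in CT-BM were kept in 26 of 26 alternatives each. With MammU6 alone, 8 members were called higher in L-1210 against CT-BM, with let-7g at 1.13 and let-7i at 1.43 in place of negative values, and 3 higher in L-1210 against M1. With snoRNA202 alone, 4 members were lower in L-1210 against CT-BM, with let-7d at -1.32 and let-7e at -1.45, and 7 lower in L-1210 against M1, with let-7f at -1.26 and let-7i at -1.20. With snoRNA135 and snoRNA202, 2 and 4 were lower in these comparisons. Scaled by common assays or by quantiles, 6 were higher in L-1210 and 5 in M1 against CT-BM. Among passenger strands and other miRNAs, for which the same alternatives were chosen after seeing the data, MammU6 alone gave 1.95 for let-7i* and 1.41 for miR-29a in L-1210 against CT-BM, 0.77 for let-7a* in PYS against CT-BM and 1.54 for miR-155 in L-1210 against M1. snoRNA202 alone gave -0.59 for let-7a* and -1.32 for miR-29b in L-1210 against CT-BM. Quantile scaling gave 1.41 for let-7i* in L-1210 against CT-BM, and -1.86 for miR-125a-5p and -1.77 for miR-125b-5p in L-1210 against M1. The cause of these changes was not tested beyond the shifts of the control RNAs. With no filter on detection, 2 members were higher and 1 lower in L-1210 against CT-BM, 1 lower in M1 against CT-BM, 1 higher in L-1210 against M1 and 1 higher in PYS against M1. The added calls other than let-7b in L-1210 are miR-98, undetected in both groups. With assays detected in all 12 replicates, which leaves out let-7a, 0 were higher in L-1210 and 1 in M1 against CT-BM. With no fold minimum, 1 was lower in L-1210 against CT-BM (let-7g). On the family scale, M1 against CT-BM gave 2 calls with a Ct limit of 32, 3 with no filter, 0 with assays detected in all 12 and 2 with a fit of the 2 groups compared. L-1210 against M1 gave 1 with no filter, and L-1210 against CT-BM gave 1 with assays detected in all 12. Leaving out single replicates gave 0 to 4 members higher in L-1210 and 1 to 4 in M1 against CT-BM, 0 to 1 lower in L-1210 against M1, 5 to 8 lower in PYS against L-1210, 6 to 8 against M1 and 4 to 5 against CT-BM, where let-7f went untested without CT-BM replicate 1 or 2. On the family scale the ranges were 0 to 3 in L-1210 and 0 to 4 in M1 against CT-BM, 4 to 5 in PYS against CT-BM and 5 to 6 against each line. The deviations of replicates that share a number had correlations from -0.45 to 0.33, with 3 of 18 over 0.1. With 3 replicates a group, these values cannot decide whether the numbers pair the samples. A replicate block kept 17 of 18 counts, and gave 2 in place of 3 members higher in M1 against CT-BM. The scale of the control RNAs, single wells per member and 3 replicates a group limit all values.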
